A study of Mus musculus with 12 samples.

Results

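Fatty acid uptake and oxidation were followed through 32 genes of the adult mouse heart, chosen by name to cover the path from lipoprotein triglyceride to mitochondrial electron transfer. All 32 were found among the 40594 genes of the count table, 1 row each, and all 32 passed the filter on low counts that left 15494 genes to test. RNA came from the right ventricle (RV) and left ventricle (LV) of adult mouse hearts, and the 12 libraries form 4 groups of 3: WntLOF RV, control RV, WntLOF LV and control LV. WntLOF hearts carry a loss of function in Wnt signalling (signalling between cells through secreted Wnt proteins, with beta-catenin as a main effector), and control hearts are the same tissue and age without it. The sources used here do not give the gene altered, the strain, any Cre driver or what the control animals carry. The series title sets the question as a difference between the ventricles in gene programmes that depend on Wnt and in arrhythmia.

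The adult heart draws most of its energy from long-chain fatty acids. Lipoprotein lipase frees them from circulating triglyceride at the vessel wall, and membrane transporters and a cytosolic binding protein bring them to the acyl-CoA synthetases. The carnitine shuttle then moves the acyl groups into the mitochondrion, at a step that malonyl-CoA inhibits. Inside, a repeated cycle of dehydrogenation, hydration, a further dehydrogenation and thiolysis shortens the chain, and electron transfer flavoprotein passes electrons to the respiratory chain. Nuclear receptors of the PPAR and ERR families, with the coactivator encoded by Ppargc1a, are known to drive many of these genes together in heart muscle.

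No member and no other gene passed an adjusted p of 0.05 in any of the 5 comparisons by edgeR's quasi-likelihood test with Benjamini-Hochberg adjustment, and DESeq2 called 0 as well; replicate blocks and libraries left out gave the calls described with each comparison. The members lay mostly on 1 side of 0 in some comparisons, by small amounts. In control hearts 31 of 32 lay higher in the RV than in the LV, with a median log2 fold change of 0.18, or 1.13-fold. In the RV 25 of 32 lay lower in WntLOF than in control hearts, with a median of -0.12, or 0.919-fold. In the LV the genotypes were close, with 14 members above 0 and 18 below and a median of -0.016. The median over all 15494 genes lay between -0.0038 and 0.0045 in the 5 comparisons. The RV comparison of the genotypes and the control comparison of the ventricles share the control RV libraries, so high values in those 3 libraries enter both.

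Total counts per library ran from 13274922 to 19173391, of which 4.62% to 8.29% fell on mitochondrially encoded genes. The 32 genes together took 1.69% to 2.07% of the counts. Cardiomyocyte markers summed to between 156880 and 178150 CPM (counts scaled to library size) in every library. Among these 10 genes Ttn ran from 78842 to 93237 CPM and Myl2 from 1716 to 7131 CPM, so the sum does not describe each marker. Separate animals are not named for the 3 libraries of any group. The p-values therefore reflect the spread among libraries, and how much of it is technical was not tested. In whole tissue, fewer cells of a type and less RNA per cell cannot be told apart. In every group the library numbered 3 had 261 to 302 CPM of Y-linked genes in sum, and the others stood near 0. The libraries labelled control LV 2 and control RV 2 differed in a set of 9 autosomal genes that were on in some libraries (1 CPM or more) and off in others (0.25 CPM or less). They shared 7 of 9 on-off states, where the libraries of 1 number shared 9 of 9 in each of the other 5 ventricle pairs. Control LV 2 shared 9 of 9 states with both libraries labelled WntLOF 1, while control RV 2 shared no more than 7 of 9 with any library. Which label of the pair is at odds with its sample cannot be told apart from these states. The main results of the members that rest on control LV 2, control RV 2 or the WntLOF libraries numbered 1 are therefore also given without them. Single values of the members' interaction are not given without control LV 2 or control RV 2. Values of neighbouring pathways and cell type markers are given only with all libraries of their groups. Ctnnb1, which encodes beta-catenin, averaged 410 ± 52.4 CPM in the WntLOF RV and 531 ± 25.7 CPM in the control RV, a log2 fold change of -0.37 (SE 0.14). It averaged 446 ± 75.4 CPM in the WntLOF LV and 511 ± 86.2 CPM in the control LV (SD, n = 3 each), a log2 fold change of -0.20 (SE 0.14). For its target Axin2 the log2 fold change was -0.23 (SE 0.31) in the RV and 0.07 (SE 0.31) in the LV, and the libraries of the 2 genotypes overlapped for Ctnnb1 in the LV.

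Levels per length were compared as RPKM (CPM per kilobase, over the union of exons in GENCODE vM21). The union counts every annotated exon base, and the lengths of the transcripts present were not measured, so the order by RPKM is approximate. Echs1, with 8286 such bases, had 36.5 RPKM at 303 CPM, and Eci1, with 2127, had 122 RPKM at 260 CPM. Fabp3, the heart-type fatty acid binding protein, was the most abundant member at a mean of 1050 RPKM over the 12 libraries. Ech1 at 555 RPKM, Acaa2 at 550.0 RPKM, Cd36 at 498 RPKM and Lpl at 365 RPKM followed. Of the 32 members, 14 were at 100 RPKM or more and 4 were under 20 RPKM. The 4 lowest were Cpt1a (12.3 RPKM), Slc22a5 (11.6 RPKM), Acaa1a (11.3 RPKM) and Cpt1b (10.9 RPKM). Cpt1b encodes the muscle form of the carnitine palmitoyltransferase that Cpt1a encodes in liver, and the pair were at like levels here. Of the Cpt1b exon bases, 81.4% lie also in Gm44502 on the same strand, and how the authors counted reads shared by overlapping genes is not given, so the level of Cpt1b is uncertain. Etfb shares 58.2%, Acadvl 42.9% (with Dvl2, on the opposite strand) and Fabp3 19.6% of exon bases with other genes, and 21 members share none. The highest library of a member was 1.22-fold (Lpl) to 2.08-fold (Fabp3) above its lowest, with a median of 1.45-fold over the members.

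**Figure D1:**
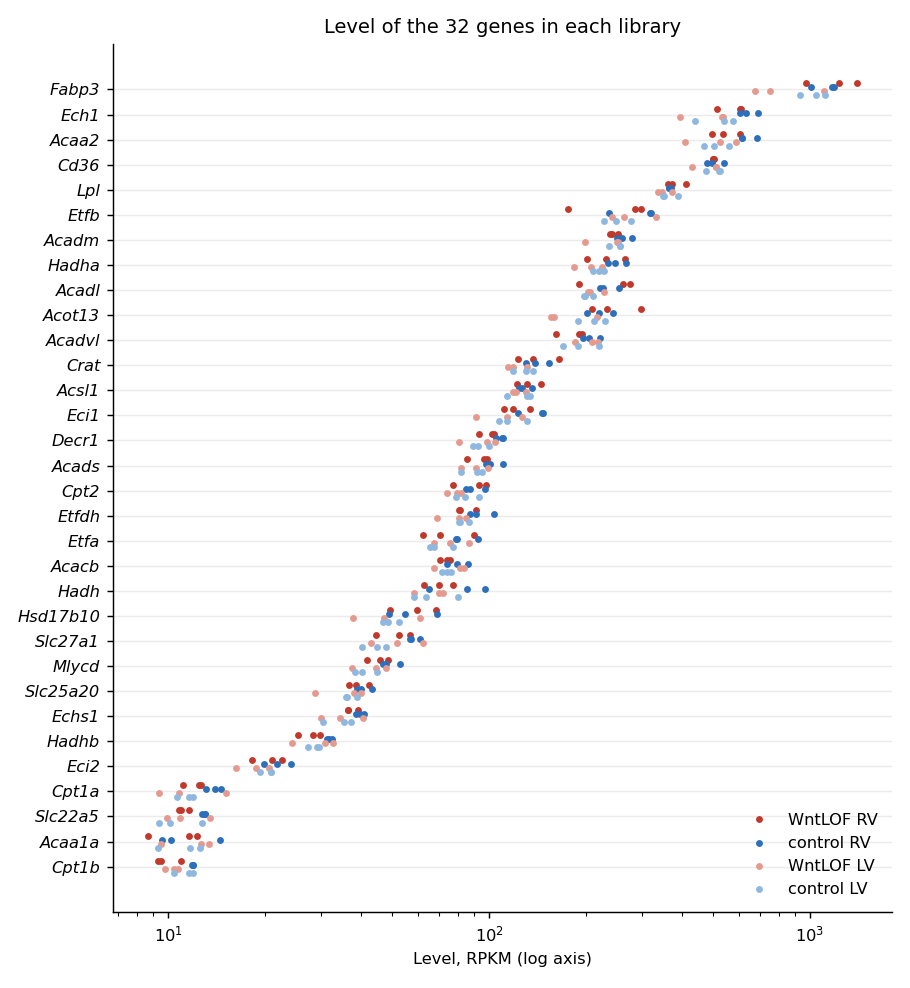
Level of each of the 32 genes in each of the 12 libraries, in RPKM on a log axis, with genes ordered by mean level and points coloured by group. The genes span from a mean of 10.9 RPKM (Cpt1b) to 1050 RPKM (Fabp3), and within a gene the 4 groups lie close together.

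Promoter sequence was looked at because the members lay on 1 side together in the control hearts. RefSeq windows of 300 bases around an annotated RefSeq start (build GRCm38.p6) were held for 26 of the 32 members. For 22 of the 26 the nearest window's start lay under 1000 bases from the outermost start of the gene in GENCODE vM21. For Cd36 it lay 52905 bases inside the gene, for Eci2 32952, for Acacb 18983 and for Acaa1a 1618, so their windows stand at other starts than the outermost. They were searched on both strands for AGGTCA, the half-site that nuclear receptors bind. They were also searched for TCAAGGTCA, the extended ERR site, and for a direct repeat of AGGTCA with 1 base between and up to 2 mismatches, the form that PPAR binds. AGGTCA stood in windows of 6 members, and in 16.3% of all 32851 windows. The direct repeat stood in windows of 4 members and in 3.86% of all, and TCAAGGTCA in 0 members and in 0.423% of all. The windows of 3 members are shown: Cpt1a, 1 of the 2 members called in control hearts in a fit with a replicate block, Cd36, the 1 member that did not lie higher in the control RV, and Echs1, with a half-site inside a direct repeat. Capitals mark the matches, which are descriptions of the letters and not binding sites. The window of Cpt1a is chr19:3323051-3323350 on the plus strand, that of Cd36 is chr5:17835847-17836146 on the minus strand and that of Echs1 is chr7:140116372-140116671 on the minus strand.
Cpt1a: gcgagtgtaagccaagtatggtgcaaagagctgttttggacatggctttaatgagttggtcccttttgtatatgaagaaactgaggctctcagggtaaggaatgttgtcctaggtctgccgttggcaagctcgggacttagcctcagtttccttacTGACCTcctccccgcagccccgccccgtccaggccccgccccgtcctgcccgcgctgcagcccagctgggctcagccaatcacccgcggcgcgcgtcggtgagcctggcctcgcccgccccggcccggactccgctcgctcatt
Cd36: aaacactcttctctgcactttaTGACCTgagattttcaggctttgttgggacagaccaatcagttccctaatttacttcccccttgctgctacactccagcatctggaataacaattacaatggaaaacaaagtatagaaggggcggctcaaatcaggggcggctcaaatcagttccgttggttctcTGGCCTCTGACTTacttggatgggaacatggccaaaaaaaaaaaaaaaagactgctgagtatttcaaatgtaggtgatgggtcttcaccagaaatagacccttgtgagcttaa
Echs1: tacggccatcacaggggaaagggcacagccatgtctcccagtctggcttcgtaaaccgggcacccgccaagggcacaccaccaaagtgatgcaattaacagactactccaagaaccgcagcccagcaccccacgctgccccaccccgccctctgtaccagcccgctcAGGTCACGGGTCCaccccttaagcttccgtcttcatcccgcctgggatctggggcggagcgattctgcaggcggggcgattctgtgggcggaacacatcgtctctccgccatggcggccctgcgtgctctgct
Cpt1a holds AGGTCA as its reverse complement TGACCT, Cd36 holds that and apart from it a direct repeat with 2 mismatches, and Echs1 holds AGGTCA as the first part of a direct repeat with 2 mismatches. None of the 3 windows held for Slc27a1, the other member called in that fit, has AGGTCA.

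Among the uptake genes, Lpl, which encodes lipoprotein lipase, had 3787, 3905 and 4297 CPM in the WntLOF RV and 3814, 3857 and 3823 CPM in the control RV, and 3528, 3619.9 and 3906 CPM in the WntLOF LV and 3666, 4063 and 3657 CPM in the control LV. The 4 groups overlapped, and WntLOF RV 3 was the highest library. Cd36, a membrane protein that aids fatty acid uptake, measured 1789.7, 1796 and 1795 CPM in WntLOF RV libraries against 1779, 1719.6 and 1937 CPM in control RV libraries, and 1826, 1542 and 1826 CPM in WntLOF LV libraries against 1706, 1870.5 and 1882 CPM in control LV libraries. The 3 WntLOF RV libraries were nearly equal, and WntLOF LV 2 was the lowest of the 12. Slc27a1 (ENSMUSG00000031808), the fatty acid transport protein FATP1, stood at 259, 307 and 331 CPM in the WntLOF RV, 332, 334 and 356 CPM in the control RV, 364, 251 and 302 CPM in the WntLOF LV and 235, 278 and 261 CPM in the control LV. All 3 control RV libraries stood above all 3 control LV libraries and above all 3 WntLOF RV libraries, while WntLOF LV 1 was the highest library of all. It lies at chr8:71568882-71587302 in build GRCm38.

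Fabp3 (ENSMUSG00000028773, chr4:130308595-130315463), whose product carries fatty acids through the cytosol, had 797, 1015 and 1153 CPM in the WntLOF RV and 831, 980.0 and 966 CPM in the control RV, and 619, 554 and 912 CPM in the WntLOF LV and 918, 861 and 768 CPM in the control LV. WntLOF LV 1 and WntLOF LV 2 were the 2 lowest libraries and WntLOF RV 2 and WntLOF RV 3 the 2 highest, but WntLOF LV 3 stood within the WntLOF RV range. Slc22a5, the plasma membrane carrier of carnitine, measured 35.8, 33.3 and 33.7 CPM in WntLOF RV libraries against 40.1, 40.0 and 39.1 CPM in control RV libraries, and 41.5, 30.5 and 33.4 CPM in WntLOF LV libraries against 28.8, 39.1 and 31.1 CPM in control LV libraries. The control RV libraries were nearly equal and stood above those of the WntLOF RV and the control LV, with WntLOF LV 1 the highest of all. Against the control LV the gap was very small, with 39.103 CPM in control RV 3 and 39.067 CPM in control LV 2.

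For activation, Acsl1, the main long-chain acyl-CoA synthetase of heart muscle, stood at 1285, 1524 and 1376 CPM in the WntLOF RV, 1324, 1301 and 1424 CPM in the control RV, 1367, 1244 and 1272 CPM in the WntLOF LV and 1194, 1373 and 1407 CPM in the control LV. All groups overlapped. Cpt1a (ENSMUSG00000024900, chr19:3322334-3385733), which forms acylcarnitine at the outer mitochondrial membrane, had 85.1, 96.5 and 95.2 CPM in the WntLOF RV and 100.4, 112 and 107 CPM in the control RV, and 116, 82.9 and 71.7 CPM in the WntLOF LV and 81.4, 91.6 and 88.6 CPM in the control LV. The control RV libraries stood above the control LV and WntLOF RV libraries, and WntLOF LV 1 was again the highest. Cpt1b (ENSMUSG00000078937, chr15:89416405-89425863) measured 37.1, 31.4 and 32.1 CPM in WntLOF RV libraries against 40.4, 40.2 and 40.5 CPM in control RV libraries, and 35.1, 36.1 and 33.0 CPM in WntLOF LV libraries against 40.4, 39.1 and 35.3 CPM in control LV libraries. The 3 WntLOF RV libraries stood below the 3 control RV libraries, which were nearly equal.

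Slc25a20, the carnitine-acylcarnitine carrier of the inner membrane, stood at 177, 187 and 205 CPM in the WntLOF RV, 193, 187 and 209 CPM in the control RV, 184, 139 and 193 CPM in the WntLOF LV and 174, 188 and 173 CPM in the control LV. WntLOF LV 2 was the lowest library and the other 11 overlapped. Cpt2, which returns acyl groups to coenzyme A in the matrix, had 185, 234 and 222 CPM in the WntLOF RV and 208, 203 and 233 CPM in the control RV, and 196, 177 and 191 CPM in the WntLOF LV and 188, 201 and 223 CPM in the control LV. WntLOF LV 2 was again the lowest, and WntLOF RV 2 and control RV 3 were the highest. Crat, carnitine acetyltransferase, measured 663, 891 and 740.0 CPM in WntLOF RV libraries against 749, 703 and 829 CPM in control RV libraries, and 706, 639 and 615 CPM in WntLOF LV libraries against 639.5, 704 and 739 CPM in control LV libraries. WntLOF RV 2 was the highest, and the groups overlapped. Acot13 (ENSMUSG00000006717, chr13:24817948-24831540), a thioesterase that frees fatty acids from acyl-CoA, stood at 155, 174 and 221 CPM in the WntLOF RV, 149.9, 181 and 164 CPM in the control RV, 118, 116 and 161 CPM in the WntLOF LV and 171, 158 and 141 CPM in the control LV. Like Fabp3, it was lowest in WntLOF LV 1 and WntLOF LV 2, and it was highest in WntLOF RV 3.

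Acacb, which encodes acetyl-CoA carboxylase 2, the maker of malonyl-CoA at the mitochondrion, had 676, 711 and 726 CPM in the WntLOF RV and 768, 713 and 829 CPM in the control RV, and 781, 806 and 649 CPM in the WntLOF LV and 689.9, 733 and 711 CPM in the control LV. The groups overlapped, with control RV 3 the highest. Mlycd encodes malonyl-CoA decarboxylase, which removes it, and measured 124, 135 and 143 CPM in WntLOF RV libraries against 138, 142 and 157 CPM in control RV libraries, and 142, 111 and 132 CPM in WntLOF LV libraries against 114, 132 and 119.7 CPM in control LV libraries. Its 3 control RV libraries stood above its 3 control LV libraries, while WntLOF RV overlapped both.

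The acyl-CoA dehydrogenases open each turn of the cycle, and differ in the chain length they take. Acadvl, for very long chains, stood at 523, 433 and 511 CPM in the WntLOF RV, 549.8, 527 and 597 CPM in the control RV, 587, 498 and 563 CPM in the WntLOF LV and 507, 593 and 456 CPM in the control LV. WntLOF RV libraries stood below control RV libraries. Acadm, for medium chains, had 944, 932 and 989 CPM in the WntLOF RV and 981, 1012 and 1088 CPM in the control RV, and 983, 781 and 984 CPM in the WntLOF LV and 928, 998 and 999 CPM in the control LV. WntLOF LV 2 stood far below the other 11. Acadl, for long chains in the mouse, and Acads, for short chains, averaged 223 and 94.2 RPKM. Both had their 3 control RV libraries above their 3 control LV libraries.

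Hadha and Hadhb encode the subunits of the mitochondrial trifunctional protein, which carries out the later steps for long chains. Hadha measured 1758, 2314 and 2020.0 CPM in WntLOF RV libraries against 2152, 2052 and 2324 CPM in control RV libraries, and 1968, 1602 and 1812 CPM in WntLOF LV libraries against 1844, 1991 and 1928 CPM in control LV libraries. Control RV stood above control LV, and WntLOF RV overlapped both. Hadhb stood at 187, 167 and 196 CPM in the WntLOF RV, 209.8, 207 and 213 CPM in the control RV, 203, 161 and 215 CPM in the WntLOF LV and 191, 194 and 179.6 CPM in the control LV. Its control RV libraries stood above both the WntLOF RV and the control LV libraries. Acaa2, the mitochondrial thiolase, had 752, 810.2 and 919 CPM in the WntLOF RV and 932, 930.2 and 1039 CPM in the control RV, and 794, 617 and 889 CPM in the WntLOF LV and 762, 849.5 and 710.2 CPM in the control LV. The control RV libraries stood above the WntLOF RV and the control LV libraries, and WntLOF LV 2 was the lowest of the 12. Echs1, the short-chain enoyl-CoA hydratase, averaged 36.5 RPKM, Hadh, the hydroxyacyl-CoA dehydrogenase for shorter chains, 71.6 RPKM, and Hsd17b10, a mitochondrial dehydrogenase of short hydroxyacyl-CoAs, 53.6 RPKM. The peroxisomal thiolase Acaa1a has a close paralogue, Acaa1b, so its counts are uncertain.

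The auxiliary enzymes of unsaturated chains, which move or reduce double bonds, were Ech1 (555 RPKM), Eci1 (122 RPKM), Decr1 (99.1 RPKM) and Eci2 (20.4 RPKM). Of these, Ech1 and Decr1 had control RV libraries that did not overlap with control LV libraries. In all 4 WntLOF LV 2 was the lowest library.

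Electron transfer flavoprotein is a dimer of the products of Etfa and Etfb. Etfa measured 129, 114 and 165 CPM in WntLOF RV libraries against 145, 145 and 169.6 CPM in control RV libraries, and 139, 124 and 159 CPM in WntLOF LV libraries against 141, 124 and 120.5 CPM in control LV libraries. Control RV stood above control LV, and WntLOF RV 2 was the lowest library. Etfb stood at 332, 204 and 347 CPM in the WntLOF RV, 275, 371 and 369 CPM in the control RV, 306, 282 and 385 CPM in the WntLOF LV and 322, 289 and 266 CPM in the control LV. WntLOF RV 2 was far below the other 11 libraries, and the groups overlapped. Etfdh, the oxidoreductase that passes the electrons on to ubiquinone, had 611, 604 and 686 CPM in the WntLOF RV and 685, 655 and 779 CPM in the control RV, and 604, 516 and 638 CPM in the WntLOF LV and 606, 651 and 611 CPM in the control LV. Control RV stood above control LV, and WntLOF LV 2 was the lowest.

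**Figure D2:**
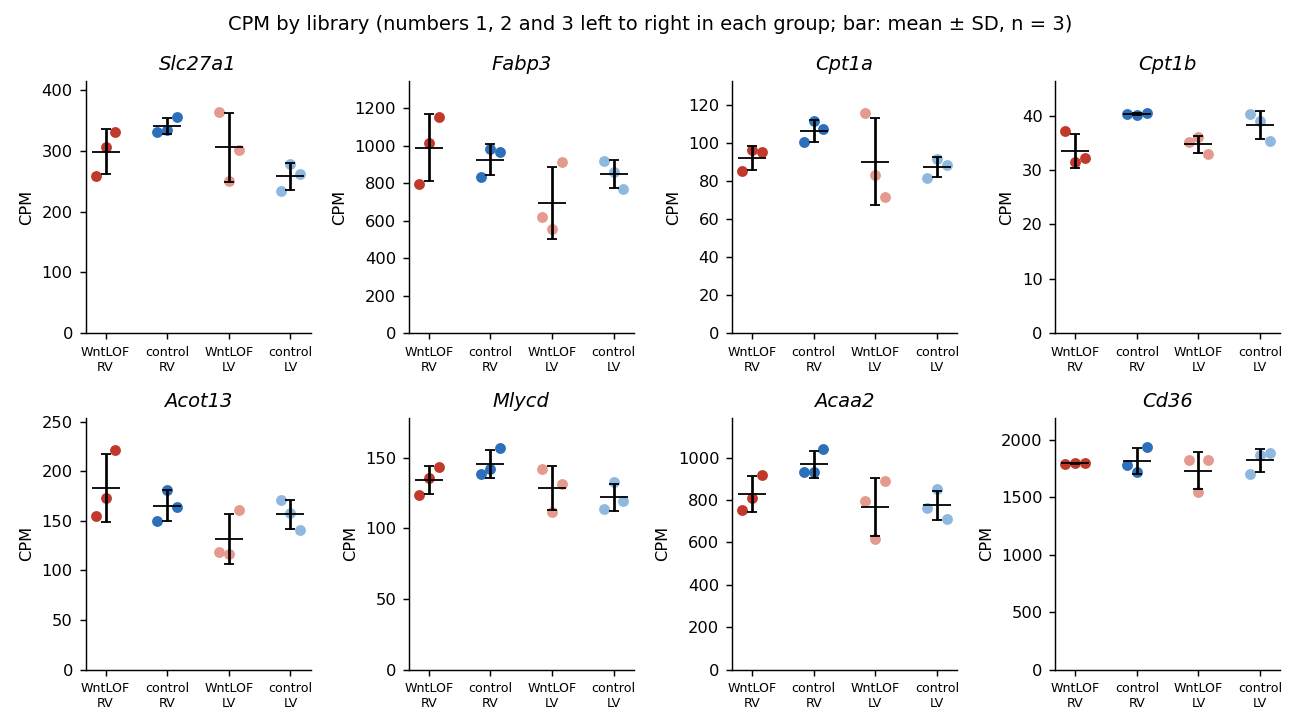
CPM of 8 members in each library, with 1 dot per library, the mean as a line and the SD as an error bar, and 1 panel per gene with an axis that starts at 0. Slc27a1, Cpt1a, Mlycd and Acaa2 have control RV dots above the control LV dots, while Fabp3 and Acot13 have 2 of 3 WntLOF LV dots below the other groups.

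Between the ventricles of control hearts the members lay higher in the RV at each step of the path. All 7 genes of the hydratase, dehydrogenase and thiolase steps lay above 0 (median log2 fold change 0.21), as did all 4 acyl-CoA dehydrogenases (0.15), both malonyl-CoA genes (0.19), all 4 enzymes of unsaturated chains (0.22) and all 3 electron transfer genes (0.21). The 7 genes of activation and the carnitine shuttle lay above 0 with a smaller median of 0.08. Of the 5 uptake genes, 4 lay above 0, and Cd36 stood at -0.0062 (SE 0.09). With library sizes taken from total counts 30 of 32 lay above 0 and the median was 0.16. Without the library labelled control LV 2 all 32 lay above 0 and the median was 0.20, and without control RV 2 all 32 lay above 0 and it was 0.17.

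At an unadjusted p under 0.05 by edgeR 5 members lay higher and 0 lower. Of all genes tested, 2.39% lay higher and 2.5% lower at that level. The 5 were Slc27a1 at 0.40 (SE 0.13), Acaa2 at 0.32 (SE 0.13), Ech1 at 0.31 (SE 0.14), Slc22a5 at 0.27 (SE 0.12) and Mlycd at 0.26 (SE 0.10). Cpt1a stood at 0.29 (SE 0.14), Etfa at 0.25 (SE 0.13), Etfb at 0.21 (SE 0.19), Hadha at 0.18 (SE 0.11), Etfdh at 0.18 (SE 0.10) and Hadhb at 0.16 (SE 0.10). Smaller differences were found for Slc25a20 (0.14, SE 0.11), Acadvl (0.11, SE 0.11), Cpt1b (0.075, SE 0.09), Acsl1 (0.027, SE 0.10), Lpl (0.014, SE 0.09), Cpt2 (0.076, SE 0.10), Acadm (0.075, SE 0.10), Fabp3 (0.12, SE 0.18), Crat (0.13, SE 0.11) and Acacb (0.11, SE 0.10). Adjusted p-values of the members ran from 0.922 upwards by edgeR's quasi-likelihood test. The median standard error of a member was 0.11, and 8 of the 32 differed by more than 2 of their standard errors.

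In 14 members the 3 control RV libraries all stood above the 3 control LV libraries, and in 0 members all below. Over all genes these shares were 6.68% and 5.92%. Besides those named with their values, the 14 include Acadl, Acads, Decr1 and Echs1. Without the library labelled control LV 2, 19 members were free of overlap in that direction, where 11.5% of all genes were, and without control RV 2 it was 18, where 10.3% of all genes were. Without the libraries numbered 3 it was 16 members, where 19.1% of all genes were. Over the 15468 genes with a known exon length, the log2 fold change in this comparison had a Spearman correlation of -0.132 with length. Over the 32 members it was -0.249, and the part of length in the members' difference was not tested.

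Control libraries of 1 number deviated from their group means together (correlations of 0.411, 0.290 and 0.517 over all genes), and the differences were also taken within numbers. RV exceeded LV for 27, 23 and 32 of the 32 members in control pairs 1, 2 and 3, with median differences of 0.15, 0.081 and 0.28 on the log2 scale. In 18 members it did so in all 3 pairs, as in 2699 of the 15494 genes tested. Cpt1a differed by 0.30, 0.29 and 0.28 and Slc27a1 by 0.50, 0.27 and 0.44. In the fit of the control libraries alone with the number as a block, 143 genes rose in the RV (0.96% of 14899 tested) and 183 fell. Of the members, Slc27a1 rose by 0.40 (SE 0.08, adjusted p 0.0138 by edgeR) and Cpt1a by 0.29 (SE 0.07, adjusted p 0.0339 by edgeR). With the same block fitted on all 12 libraries 0 genes were called, and the adjusted p was 0.514 for Slc27a1 and 0.545 for Cpt1a by edgeR. Without pair 2, which holds control LV 2 and control RV 2, 29 genes rose (0.193% of 14992 tested) and 38 fell in the fit of the control libraries alone, with Slc27a1 at 0.47 (adjusted p 0.0345 by edgeR) the only member. In the block fit of all groups without control pair 3 the members' median was 0.10, with 28 of 32 above 0.

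**Figure D3:**
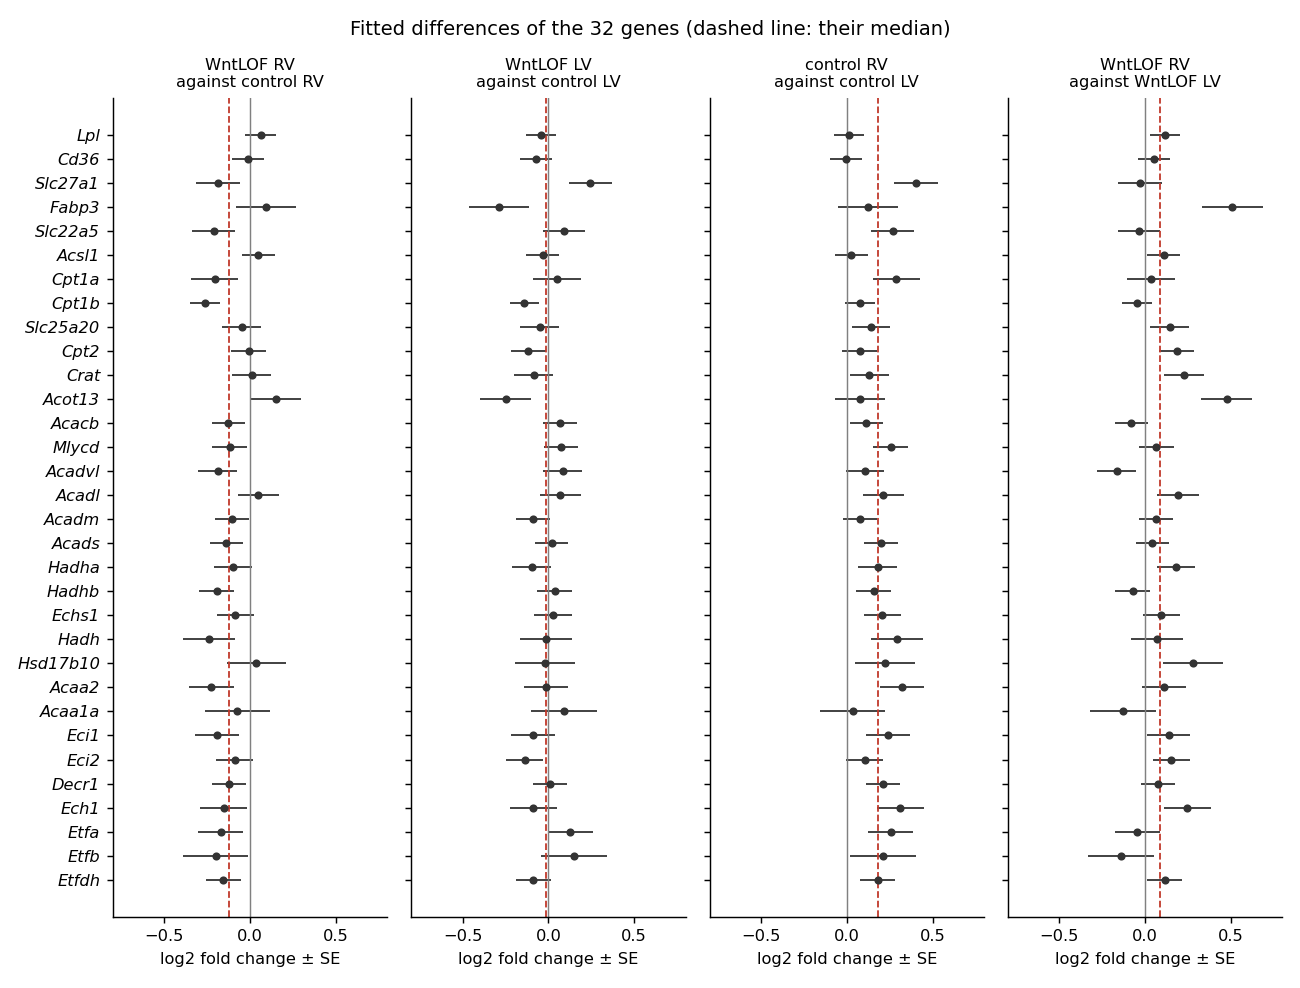
Log2 fold change of each member with its standard error in 4 comparisons, with 1 row per gene ordered by role and a dashed line at the median of the members. In control RV against control LV the median and 31 of 32 points lie right of 0, and in WntLOF RV against control RV 25 of 32 lie left of 0.

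Markers of other cell types differed between the ventricles in control hearts. Endothelial markers (8 genes) summed to between 1000 and 1081 CPM in the control RV, all below the 1117 to 1220.0 CPM of the control LV. Erythroid markers (5 genes) summed to 164 to 247 CPM in the control RV, above the 110 to 138 CPM of the control LV, and Schwann cell markers (5 genes) to 14.6 to 23.6 CPM, above 11.4 to 14.4 CPM. The 7 adipocyte markers summed to 0.196 to 1.92 CPM in the control RV and 2.01 to 3.64 CPM in the control LV, with no more than 4.15 CPM in any library and each of the 7 at 0 in at least 1. Markers of the other 6 lists overlapped. The part of these other cell types in the members' difference was not tested.

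In WntLOF hearts 23 members lay higher in the RV than in the LV and 9 lower, with a median log2 fold change of 0.085 (0.024, with 19 above 0, when sizes were taken from total counts). At an unadjusted p under 0.05 by edgeR 2 lay higher and 0 lower, where 3.22% of all genes lay higher and 1.59% lower. They were Fabp3 at 0.51 (SE 0.18) with an unadjusted p of 0.0128 and Acot13 at 0.48 (SE 0.15) with an unadjusted p of 0.00683. With 823 and 744 exon bases these are the 2 members under 1000 bases. Over the 15468 genes with a known length the log2 fold change had a Spearman correlation of -0.185 with exon length in this comparison, as a description across genes of the same 6 libraries, and the median of the other 30 members was 0.073. The part of length in these values was not tested. Crat stood at 0.23 (SE 0.11), Ech1 at 0.25 (SE 0.14), Hadha at 0.18 (SE 0.11) and Cpt2 at 0.18 (SE 0.10). The lower members were led by Acadvl at -0.17 (SE 0.11) and Etfb at -0.14 (SE 0.19). Slc27a1 (-0.032, SE 0.13) and Cpt1a (0.033, SE 0.14) were near 0. In 0 members were the 2 groups free of overlap, where 3.36% of all genes were in the higher and 3.7% in the lower direction. Without the libraries numbered 1, of 2 libraries a group, 14 members stood higher without overlap and 1 lower (Cpt1b), where 17.9% and 18.9% of all genes did. Adjusted p-values were above 0.999 for all members by edgeR.

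The 3 WntLOF pairs differed among themselves. RV exceeded LV for 9, 26 and 24 of the 32 members in pairs 1, 2 and 3, with medians of -0.082, 0.28 and 0.11. It did so in all 3 pairs for 6 members, as for 2266 of the 15494 genes tested. In 2 members RV was below LV in all 3 pairs, as in 1930 of all genes. Among the 6 were Fabp3 at 0.37, 0.87 and 0.34 and Acot13 at 0.39, 0.58 and 0.46. Cpt1a differed by -0.45, 0.22 and 0.41 and Slc27a1 by -0.49, 0.29 and 0.13, with pair 1 opposite to the others for both. Without pair 1 the median of the members was 0.20. With the block as well, 215 genes rose in the WntLOF RV (1.37% of 15692 tested) and 82 fell. Fabp3 at 0.61 (adjusted p 0.0450 by edgeR) and Acot13 at 0.52 (adjusted p 0.0269 by edgeR) were the members among them. With all 3 WntLOF pairs the block called 0 members, and the smallest adjusted p of a member by edgeR was that of Acot13, at 0.147 in the fit of all 12 libraries and 0.347 in that of the WntLOF libraries alone. WntLOF LV 2 was the lowest of 12 libraries for 19 members, and for 1749 of all 15494 genes. Without WntLOF LV 2 the median was -0.023 in the fit without the block, with 14 members above 0. Without WntLOF LV 1 that median was 0.14, and without WntLOF RV 3 it was 0.045.

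Between the genotypes, 25 of the 32 members lay lower in the WntLOF RV than in the control RV, and no difference between the steps of the path was tested. All 3 electron transfer genes (median log2 fold change -0.17), all 4 enzymes of unsaturated chains (-0.14), both malonyl-CoA genes (-0.12), 3 of 4 dehydrogenases (-0.12) and 6 of 7 genes of the later steps (-0.10) lay below 0. Uptake genes (2 above and 3 below 0) and genes of activation and the shuttle (3 above and 4 below) had medians of -0.01. Cpt1b had the lowest p of the members, at -0.27 (SE 0.09) with an unadjusted p of 0.00913, and was the 1 member under 0.05. At that level 1.16% of all genes lay lower and 1.54% higher. Acaa2 stood at -0.23 (SE 0.13), Cpt1a at -0.21 (SE 0.14), Slc22a5 at -0.21 (SE 0.12), Slc27a1 at -0.19 (SE 0.13), Acadvl at -0.19 (SE 0.11) and Hadhb at -0.19 (SE 0.10). Etfb stood at -0.20 (SE 0.19), Etfa at -0.17 (SE 0.13), Etfdh at -0.16 (SE 0.10), Acacb at -0.13 (SE 0.10) and Mlycd at -0.12 (SE 0.10). The members above 0 were led by Acot13 at 0.15 (SE 0.15), Fabp3 at 0.095 (SE 0.18) and Lpl at 0.061 (SE 0.09). All adjusted p-values of the members were above 0.999 by edgeR. The median was -0.075 without control RV 3, -0.077 without WntLOF RV 1, -0.13 without control RV 2 and -0.16, with 29 of 32 below 0, without WntLOF RV 3.

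In 8 members the 3 WntLOF RV libraries all stood below the 3 control RV libraries: Cpt1a, Cpt1b, Slc27a1, Slc22a5, Acadvl, Hadhb, Acaa2 and Decr1. None stood above. Over all genes 3.94% stood below and 3.61% above. Without the WntLOF libraries numbered 1 the count below was again 8, where 10.4% of all genes stood below, and 3 members then stood above (Acadl, Fabp3 and Lpl), where 10.3% of all genes did. Without the libraries numbered 3 it was 18, where 15.7% of all genes stood below. Without control RV 2 it was 10, where 8.07% of all genes stood below, and without WntLOF RV 3 it was 17, where 8.33% did. Leaving out Cpt1b and the other 3 members that share at least 10% of their exon bases with another gene left 22 of 28 below 0, with a median of -0.11. The summed markers of all 10 cell type lists overlapped between the WntLOF RV and the control RV. Within the list of 5 atrial muscle genes, which summed to 35.3 to 85.4 CPM in the WntLOF RV and 17.0 to 58.3 CPM in the control RV, WntLOF RV 3 stood apart in 4. Myl7 was at 10.2 CPM there and at no more than 1.26 CPM in the other 11 libraries, and Myl4 was at 10.7 CPM and at no more than 2.86 CPM. Sln was at 1.85 CPM and Bmp10 at 1.15 CPM in that library, near 0 in the others, while Nppa was within their range at 22.1 CPM. For WntLOF RV against control RV the log2 fold change was 1.61 (SE 0.62, unadjusted p 0.0259) for Myl4 and 3.17 (SE 1.24, unadjusted p 0.0286) for Myl7, with adjusted p above 0.999 for both by edgeR. WntLOF RV 3 was the highest of the 3 WntLOF RV libraries for 20 of the 32 members, and the part of atrial tissue in the members' values was not tested. In the authors' deposited table for the RV 26 members stood below 0 and 6 above, and Cpt1b stood at -0.27 with an unadjusted p of 0.00493. The smallest adjusted p of any member in that table was 0.918.

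In the LV the genotypes overlapped for every member, where 3.95% of all genes stood higher and 3.95% lower without overlap. Without control LV 2 they again overlapped for every member, where 8.68% of all genes stood higher and 8.35% lower. Without WntLOF LV 1, Crat and Hadha stood lower without overlap, as did 7.14% of all genes. At an unadjusted p under 0.05 by edgeR 0 members lay higher or lower, where 1.43% of all genes lay higher and 1.42% lower. The lowest were Fabp3 at -0.29 (SE 0.18) and Acot13 at -0.25 (SE 0.15), and the highest were Slc27a1 at 0.24 (SE 0.13) and Etfb at 0.15 (SE 0.19). Cpt1b stood at -0.14 (SE 0.09), Cpt2 at -0.12 (SE 0.10), Crat at -0.087 (SE 0.11), Acsl1 at -0.034 (SE 0.10) and Slc25a20 at -0.052 (SE 0.11). Adjusted p-values were 0.999 for all members by edgeR. With total counts as library sizes 18 members lay above 0 in place of 14, so the direction in the LV turned with the scaling. Without control LV 2 it was also 18, without WntLOF LV 2 it was 23 and without WntLOF LV 1 it was 10. Without the libraries numbered 3, of 2 libraries a group, 10 members stood lower without overlap and 2 higher (Acacb and Acadl), where 21.9% and 17.9% of all genes did. Endothelial markers summed to 899 to 1109 CPM in the WntLOF LV, below the 1117 to 1220.0 CPM of the control LV, and their part in the members' values was not tested. The authors' deposited table for the LV gave these 3 extremes unadjusted p-values under 0.05, with Fabp3 at -0.35, Acot13 at -0.28 and Slc27a1 at 0.29, where 5.6% of its 14179 genes had such a p. The smallest adjusted p of any member there was 0.841.

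Whether the genotype difference itself differed between the ventricles was tested as an interaction, the RV difference minus the LV difference. Of the members 10 lay above 0 and 22 below, with a median of -0.11. The median was -0.18 without WntLOF LV 2, -0.05 without WntLOF LV 1, -0.06 without control LV 3 and -0.0081 without WntLOF LV 3. Slc27a1 stood at -0.43 (SE 0.18) with an unadjusted p of 0.0318 by edgeR, the 1 member under 0.05, and at -0.19 with the block and without the WntLOF libraries numbered 1. At that level 0.962% of all genes lay lower and 1.05% higher. Acot13 (0.40, SE 0.21) and Fabp3 (0.38, SE 0.25) lay farthest above 0, and Etfb (-0.35, SE 0.27) was next below Slc27a1. All adjusted p-values of the members were above 0.999 by edgeR, so a difference between the ventricles in the response to genotype was not detectable for any member.

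The members tended to be high or low together within a library. Taking each library's log2 CPM against the mean of the 12, the median deviation of the members was -0.09, 0.03 and 0.12 in WntLOF RV 1 to 3 and 0.07, 0.08 and 0.19 in control RV 1 to 3. It was -0.0046, -0.25 and 0.03 in WntLOF LV 1 to 3 and -0.07, 0.02 and -0.09 in control LV 1 to 3. In control RV 3 all 32 members stood above their mean, and it was the highest library for 15. Of all 15494 genes, 8069 stood above their mean in control RV 3, and it was the highest library for 1147. In WntLOF LV 2, 1 of 32 members stood above its mean, where 7862 of all genes did. The same library was the lowest for 23 of 32 nuclear genes of the respiratory chain (median deviation -0.41) and for 13 of 19 genes of the citric acid cycle (-0.20).

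**Figure D4:**
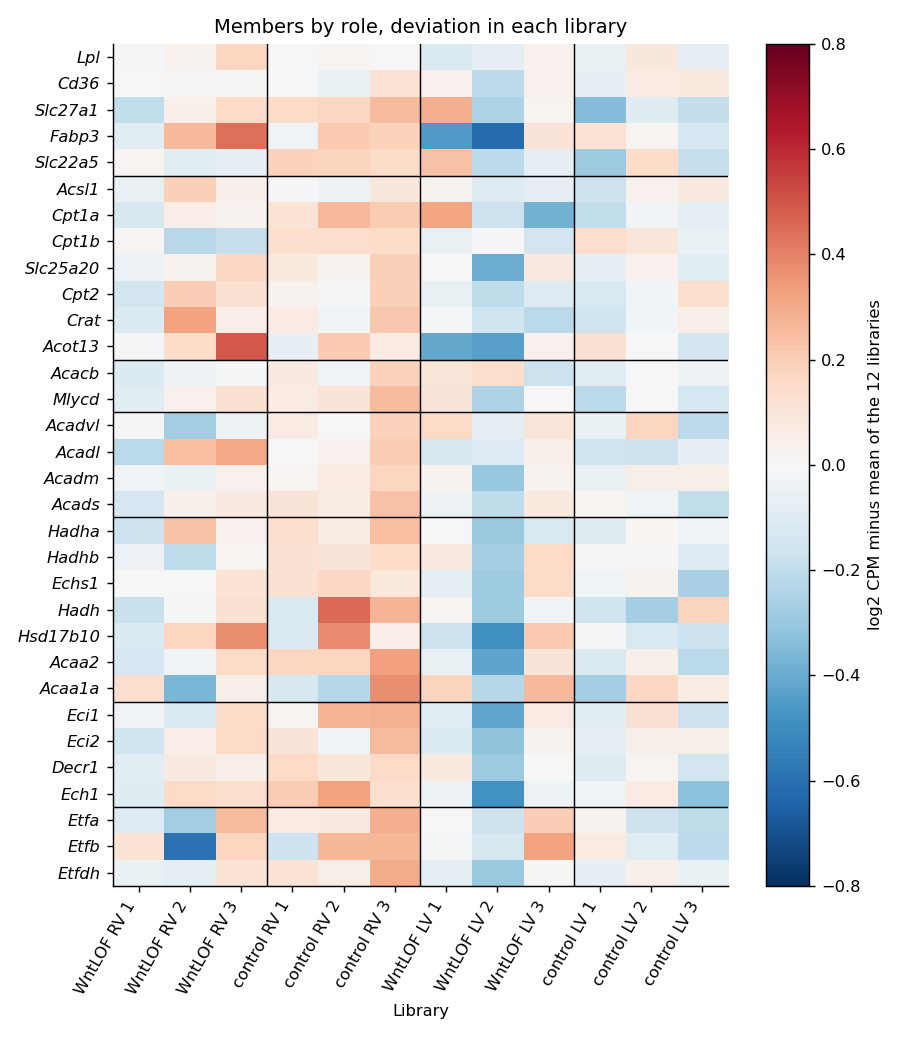
Deviation of each member in each library from its mean over the 12 libraries (log2 CPM, red above and blue below), with genes ordered by role and libraries by group. The column of control RV 3 is above the mean in all 32 rows and that of WntLOF LV 2 is below it in 31.

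**Figure D5:**
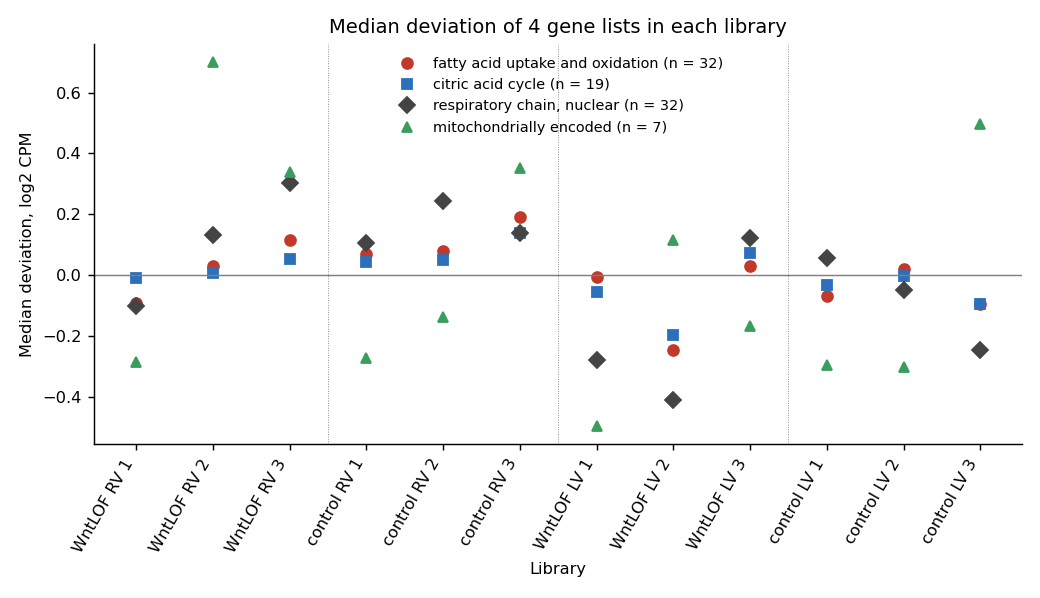
Median deviation from the 12-library mean (log2 CPM) in each library for the 32 members and 3 other gene lists, with libraries ordered by group. WntLOF LV 2 is the lowest point for the members at -0.25 and for the respiratory chain at -0.41, and control RV 3 is the highest for the members at 0.19.

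Neighbouring pathways were read from lists of other genes. In the control RV against the control LV, all 32 nuclear respiratory chain genes lay above 0 (median 0.23), as did 17 of 19 citric acid cycle genes (0.10), 18 of 23 other mitochondrial enzymes of acyl-CoA oxidation (0.11) and 12 of 17 peroxisomal ones (0.09). Fuel choice genes, which set the use of fatty acids against glucose, lay above 0 in 12 of 15 (0.23). Triglyceride storage and lipolysis genes did so in 14 of 17 (0.10) and glycolysis genes in 11 of 17 (0.05). Regulators of fatty acid oxidation lay above 0 in 15 of 25 (0.02). Other uptake and activation genes did so in 10 of 16 (0.03) and mitochondrially encoded genes in 4 of 7 (0.0079). In the WntLOF RV against the control RV, 18 of 23 other mitochondrial oxidation enzymes (-0.10), 15 of 19 citric acid cycle genes (-0.02), 15 of 17 triglyceride genes (-0.08) and 23 of 32 respiratory chain genes (-0.04) lay below 0, while all 7 mitochondrially encoded genes tested lay above it (0.30). Peroxisomal genes lay below 0 in 10 of 17 (-0.01), glycolysis genes in 11 of 17 (-0.0092), fuel choice genes in 8 of 15 (-0.02) and regulators of fatty acid oxidation in 12 of 25 (0.0018). Other uptake and activation genes lay below 0 in 11 of 16 (-0.04). None of these genes was called by edgeR in either comparison in the fit of all 12 libraries with no block.

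In the fit of the control libraries alone with the number as a block, where 0.96% of all genes rose in the RV, 6 of 15 fuel choice genes rose and 0 fell. Among them were Pdk4 at 0.84 (SE 0.09, adjusted p 8.48e-05 by edgeR), Ucp3 at 0.70, Acot1 at 0.93, Pdp1 at 0.32 and Pdp2 at 0.31. Ucp3 encodes a mitochondrial uncoupling protein of muscle, Acot1 a cytosolic acyl-CoA thioesterase (with close paralogues, so its counts are uncertain), and Pdp1 and Pdp2 the phosphatases that switch pyruvate dehydrogenase on. Ucp3 and Acot1 are, like Pdk4, known PPAR targets. Angptl4, a secreted inhibitor of lipoprotein lipase, rose by 0.88 (adjusted p 0.00292 by edgeR), 1 of 16 other uptake and activation genes. Of the other neighbouring lists, Uqcrq of the respiratory chain rose by 0.55 and mt-Nd4 by 0.39, and Pfkp of glycolysis fell by 0.41. Among the cell type markers of that fit, Tie1 of endothelial cells fell by 0.33, and of erythroid cells Alas2 rose by 0.56 and Hbb-bt, which has a near-identical copy, by 0.75. The part of these cells in the fuel choice genes was not tested. All these calls use pair 2, which holds control LV 2 and control RV 2. Without pair 2, 29 genes rose in the fit of the control libraries alone (0.193% of 14992 tested). Which of the genes named here were among them is not given. With the block fitted on all 12 libraries 0 genes were called.

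Pdk4, the kinase that shuts off pyruvate dehydrogenase and a known PPAR target, stood at 376, 478 and 477 CPM in the WntLOF RV, 1299, 894 and 917 CPM in the control RV, 763, 297 and 313 CPM in the WntLOF LV and 619, 557 and 541 CPM in the control LV. All 3 control RV libraries stood far above all WntLOF RV and control LV libraries, and WntLOF LV 1 stood above the other 2 of its group. Its log2 fold change was -1.22 (SE 0.32) in the WntLOF RV against the control RV (unadjusted p 0.00351, adjusted p above 0.999 by edgeR) and 0.86 (SE 0.32) in the control RV against the control LV (unadjusted p 0.0235, adjusted p 0.922 by edgeR). Plin2, which coats lipid droplets, stood at -0.40 (SE 0.10) in the RV and -0.31 (SE 0.10) in the LV for WntLOF against control, and Fabp5, another binding protein, at -0.65 (SE 0.20) in the RV and -0.59 (SE 0.20) in the LV. Ppara, which encodes PPAR alpha, averaged 72.5 ± 9.33 CPM in the WntLOF RV and 85.6 ± 8.85 CPM in the control RV (SD, n = 3 each). It averaged 77.7 ± 11.6 CPM in the WntLOF LV and 81.8 ± 4.25 CPM in the control LV (SD, n = 3 each). Ppargc1a averaged 168 ± 29.2 CPM in the WntLOF RV and 179 ± 31.5 CPM in the control RV, and 167 ± 25.4 CPM in the WntLOF LV and 146 ± 8.06 CPM in the control LV (SD, n = 3 each). Ppara libraries overlapped between the groups. For Ppargc1a the control RV libraries stood above the control LV libraries, with a log2 fold change of 0.30 (SE 0.15), an unadjusted p of 0.0671 and an adjusted p of 0.922 by edgeR.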

How the data were processed

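RNA-seq libraries of 12 ventricle samples were measured. Raw read counts for each Ensembl gene were deposited by the authors. Tools named per the submitters' processing notes are featureCounts, Subread and edgeR. Their 2 deposited comparison tables, WntLOF against control in each ventricle, hold log2 fold changes, log2 CPM per library, p-values and scores (moderated statistics and signed linear fold ratios), per the file headers. Aligner, genome build, strand setting and handling of shared reads were not stated in the sources used, and reads of overlapping genes cannot be told apart. Groups and replicate numbers were taken from the sample titles.

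Of 41192 rows, 598 repeated a gene with equal counts and were left out. Counts were fitted with edgeR 4.0.16 (limma 3.58.1, R 4.3.3): filterByExpr by group, TMM sizes, a robust quasi-likelihood model with 1 mean per group over 12 libraries, and 5 contrasts. Benjamini-Hochberg adjustment was over 15494 genes, at a threshold of 0.05. CPM used TMM sizes, and deviations used log2 CPM with a prior count of 2. Exon lengths and overlaps came from GENCODE vM21 (GRCm38) and promoters from RefSeq. The computation was tested on simulated data with known changes.

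Deviations from group means correlated over 0.1 within every ventricle pair (WntLOF numbers 0.191, 0.197 and 0.594), and ventricles were therefore treated as paired by number, from the data and not the labels. For WntLOF, 1 correlation between numbers 1 and 2 was 0.201, above the 0.191 of number 1. Between the genotypes, 1 correlation between numbers 1 and 2 of the LV was 0.321, above the 0.290 of control pair 2. Same-numbered libraries of the 2 genotypes also exceeded 0.1 for number 3 in the LV (0.233). In the RV they did so for numbers 2 and 3 (0.113 and 0.306). A correlation over 0.1 therefore does not show that 2 libraries came from 1 heart. Genotypes were not paired in the main fit, but the replicate-block settings of the genotype comparisons did hold a term for the number. Alternatives were RLE sizes, total counts, other filters, DESeq2 1.42.0, the compared groups alone, replicate blocks, a term for Y-linked reads and leaving out libraries. Blocks with pairs left out, counts of separated groups without libraries and members without shared exons were added after the data were seen.

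The members and lists were chosen with earlier results of these data known. The rule for named genes gives all library values for a fixed set, for called members and for the 3 smallest p-values per direction, up to 2 genes per other list, and Ppara, Ppargc1a and Pdk4. Decr1, Ech1, Acadl, Acads and Echs1 are also named where groups did not overlap, and atrial genes, block-called listed genes and members at particular starts or lengths were named after their values were seen.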

Additional observations from a re-analysis of the deposited data

How the results depend on the processing

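Of 3904 values of single members under other settings, 3898 stayed on the same side of the adjusted p threshold and 6 newly passed it. These counts do not follow direction, which turned for some members. Members above 0 ran from 10 to 23 in the LV comparison of the genotypes. They ran from 14 to 25 in WntLOF RV against WntLOF LV. Over all settings the members' median ran from 0.10 to 0.23 for control RV against control LV, from -0.16 to -0.075 for WntLOF RV against control RV and from -0.18 to -0.0067 for the interaction. For WntLOF LV against control LV it ran from -0.072 to 0.081. For WntLOF RV against WntLOF LV it ranged from -0.023 to 0.14 when 1 library was left out. It was 0.20 without the WntLOF libraries numbered 1, 0.20 without these and control LV 2, and 0.20 without the WntLOF pair with the replicate block.

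Genes called by edgeR in the control RV against the control LV numbered 9 with these groups alone and 326, with 2 members, with the replicate block as well, against 0 with the block and all 12 libraries. They numbered 2 without the WntLOF libraries numbered 1, 2 without these and control LV 2, and 139, with 1 member, without the WntLOF libraries numbered 1 and with the replicate block. With the block they numbered 67, with 1 member, for control libraries alone without pair 2, and 3 without control pair 1. In the WntLOF RV against the WntLOF LV 1 gene was called with the replicate block, 1 with the block and these groups alone, 0 to 1 when 1 library was left out, and 2 without the WntLOF libraries numbered 1, with or without control LV 2. With the block and without the WntLOF libraries numbered 1 it was 297, with 2 members, and with the block and without control pair 2 it was 1. The interaction had 1 gene called with the replicate block, with all libraries, without the WntLOF libraries numbered 1 and without control pair 2. In the WntLOF RV against the control RV 0 to 1 genes were called when 1 library was left out. The causes were not tested. The block, fitted by number in the genotype comparisons too, changed no other call. Outside these block settings, same-numbered genotypes were not taken as paired (correlations of -0.043, -0.090 and 0.233 in the LV and 0.089, 0.113 and 0.306 in the RV).

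Groups of 3 libraries and standard errors of 0.087 to 0.19 limit single members: differences near the members' medians were not detectable 1 gene at a time. Which heart each library came from, the origin of control LV 2 and control RV 2, and reads shared by overlapping genes limit what the pairing, the LV groups and Cpt1b can show.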
